A study of Mus musculus with 10 samples.

Results

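The respiratory chain is built from subunits of 2 genetic origins, and the genes examined here are those of nuclear origin. They were chosen by symbol alone: protein-coding genes named Nduf followed by a, b, c, s or v and digits (complex I), Sdha to Sdhd (complex II), Uqcr and a suffix (complex III), or Cox4 to Cox8 and a suffix (complex IV). Of the 37417 genes of the count table, 66 met this rule, 36 of them in complex I, 4 in complex II, 8 in complex III and 18 in complex IV. The rule used no expression value. Ndufab1, Ndufa4l2 and Cyc1, also respiratory chain genes, fall outside it, and Cox6c2 was left out as a processed pseudogene.

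Bulk RNA-seq counts came from 10 subcutaneous (s.c.) tumors of Panc02, a mouse pancreatic cancer cell line, grown in the flank of wild-type C57BL/6J mice aged 12 weeks and collected on day 16 after injection. Both groups of cells carried a doxycycline-inducible Cas9 and 1 guide, which was nontargeting in the 5 sgNT tumors and directed at Cda, the gene of cytidine deaminase, in the 5 sgCda tumors. The edit was made in the injected cells and not in the host, and Panc02 is described in the study as not reflecting the human disease. Cda itself was at 10.1, 11.7, 12.8, 14.7 and 11.1 CPM (counts per 1000000 counts of the scaled library) in sgNT tumors 1 to 5 and at 8.34, 8.43, 12.1, 7.47 and 12.5 CPM in sgCda tumors 1 to 5, so the groups overlapped (log2 fold change −0.30, SE 0.17, adjusted p = 0.9996, edgeR quasi-likelihood test). An RNA level does not measure the edit itself, and host cells contribute to it.

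Assigned counts ran from 28051907 to 39484964 per tumor. Epithelial Krt8, at 353 to 645 CPM, and Krt18, at 157 to 325 CPM, were abundant in each tumor. Epcam was far lower, at 0.911 to 3.43 CPM. Of the acinar genes, Prss1 and Amy2a5 had 0 counts and Cpa1 and Pnlip had 3 each, whereas Cela1 was at 0.956 to 2.97 CPM. The tumors were different mice, and whether they were grown or sequenced in batches is not given. As these were whole tumors, a higher or lower value cannot be assigned to more cells of a type or to more RNA per cell.

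Complex I (NADH dehydrogenase) and complex II (succinate dehydrogenase, also an enzyme of the tricarboxylic acid cycle) pass electrons to ubiquinone, complex III (the cytochrome bc1 complex) passes them on to cytochrome c, and complex IV (cytochrome c oxidase) hands them to oxygen. Complexes I, III and IV pump protons, and ATP synthase uses the resulting gradient. Mitochondrial DNA encodes the hydrophobic cores of complexes I, III and IV, while complex II is wholly nuclear, and the nuclear factors NRF1, YY1 and ERR alpha are known to act on the promoters of many subunit genes. Several complex IV subunits exist in tissue-restricted isoforms, among them Cox6a2, Cox7a1 and Cox8b, which replace Cox6a1, Cox7a2 and Cox8a in heart and skeletal muscle.

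RefSeq promoter windows, from 250 bases before to 50 bases after the annotated start (GRCm38.p6), were at hand for 53 of the 66 genes. The NRF1 motif, searched on both strands and shown in capitals in the matches printed next, was found in 11 of the 53 (20.8%), against 5.19% of 27025 genes with a window. The YY1 motif AANATGGCG stood in 7 (13.2% against 2.76%), the ERR alpha motif TCAAGGTCA in 1 (1.89% against 0.466%) and the MEF2 motif in 1 (1.89% against 4.23%). CpG dinucleotides numbered 19 per window in the median subunit gene and 7 in the median of all windows. The NRF1 and YY1 motifs themselves contain CpG, and the genes compared with were not matched for it. The part of base composition in the motif shares was not tested. A match is a stretch of letters and not a measured binding site. The NRF1 matches of Ndufa5, Sdha, Sdhd, Uqcrc1 and Cox6a1, genes described further on, are given to show where the searched letters stand, each on the strand of the gene with the match in capitals.

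Ndufa5 (chr6:24527697-24527726, minus strand): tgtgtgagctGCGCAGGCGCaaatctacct
Sdha (chr13:74350231-74350260, minus strand): gcgactcggtGCGCAAGCGCagtctgtcgc
Sdha (chr13:74350276-74350305, minus strand): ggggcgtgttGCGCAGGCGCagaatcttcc
Sdha (chr13:74350319-74350348, minus strand): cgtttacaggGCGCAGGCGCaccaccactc
Sdhd (chr9:50603909-50603938, minus strand): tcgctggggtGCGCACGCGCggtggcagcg
Uqcrc1 (chr9:108936643-108936672, plus strand): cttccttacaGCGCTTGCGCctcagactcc
Uqcrc1 (chr9:108936668-108936697, plus strand): actccgctctGCGCATGCGCagcgcggctc
Cox6a1 (chr5:115349056-115349085, minus strand): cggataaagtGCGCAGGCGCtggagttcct
Cox6a1 (chr5:115349101-115349130, minus strand): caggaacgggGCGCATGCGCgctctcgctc

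The 250 bases before the start of 2 isoform pairs are shown because the muscle isoform of each varied far more between tumors than its partner did. The first of each pair is the widely expressed isoform and the second the muscle isoform. None of the 4 stretches held a match to the 4 motifs, so all are in lower case.

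Cox7a2 (chr9:79759854-79760103, minus strand): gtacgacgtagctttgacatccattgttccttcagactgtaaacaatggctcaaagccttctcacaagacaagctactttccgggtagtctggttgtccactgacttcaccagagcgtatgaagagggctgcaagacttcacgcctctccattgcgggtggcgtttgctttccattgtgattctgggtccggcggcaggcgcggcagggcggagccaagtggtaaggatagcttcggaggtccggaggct
Cox7a1 (chr7:30183921-30184170, plus strand): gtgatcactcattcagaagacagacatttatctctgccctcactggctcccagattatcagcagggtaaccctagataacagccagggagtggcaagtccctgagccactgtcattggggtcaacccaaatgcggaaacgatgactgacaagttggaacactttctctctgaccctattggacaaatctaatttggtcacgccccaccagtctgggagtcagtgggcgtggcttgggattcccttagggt
Cox8a (chr19:7217617-7217866, minus strand): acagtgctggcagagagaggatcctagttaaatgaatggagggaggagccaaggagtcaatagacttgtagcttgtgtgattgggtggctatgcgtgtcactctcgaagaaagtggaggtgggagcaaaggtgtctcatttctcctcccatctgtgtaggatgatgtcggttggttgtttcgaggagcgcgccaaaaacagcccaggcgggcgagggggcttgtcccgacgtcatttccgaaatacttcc
Cox8b (chr7:140900447-140900696, minus strand): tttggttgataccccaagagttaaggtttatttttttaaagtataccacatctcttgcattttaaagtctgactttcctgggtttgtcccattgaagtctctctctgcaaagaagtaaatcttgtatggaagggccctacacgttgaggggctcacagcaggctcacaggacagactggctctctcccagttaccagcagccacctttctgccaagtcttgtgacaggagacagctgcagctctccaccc

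The widely expressed isoforms had the more CpG-rich stretches, with 14 CpG dinucleotides for Cox7a2 against 4 for Cox7a1, and 11 for Cox8a against 1 for Cox8b.

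First, the levels of the subunits were set side by side, as CPM per kilobase of the principal transcript. The filter on low counts was passed by 63 genes. The other 3 were isoforms of complex IV that are known mainly from testis: Cox8c had 0 counts in all 10 tumors, Cox7b2 had 5 counts in all, and Cox6b2 had 89, at 0.0942 to 0.461 CPM. A count of 0 in the shallowest tumor allows up to 0.107 CPM (3 counts).

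Complex IV held both ends of the scale. Its Cox6c stood at 418 ± 39.4 CPM per kb (SD over all 10 tumors), Cox4i1, the isoform of subunit 4 found in most tissues, at 406 ± 66.7, and Cox8a at 336 ± 26.2. The first 2 did not differ beyond their spread. At the bottom were Cox4i2, the isoform of subunit 4 known from lung and oxygen-sensing cells, at 2.34 ± 0.909 CPM per kb, then Cox6a2 at 6.31 ± 8.47 and Cox8b at 6.43 ± 8.95. By exonic length of the whole gene in place of the principal transcript, Cox8a, Cox6b1 and Cox4i1 led, and Cox6c fell to rank 29 of 63, since its annotated exons are far longer than its main transcript. The median subunit gene stood at 72.3 CPM per kb in complex I, 87.3 in complex II, 90.1 in complex III and 106 in complex IV.

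**Figure D1:**
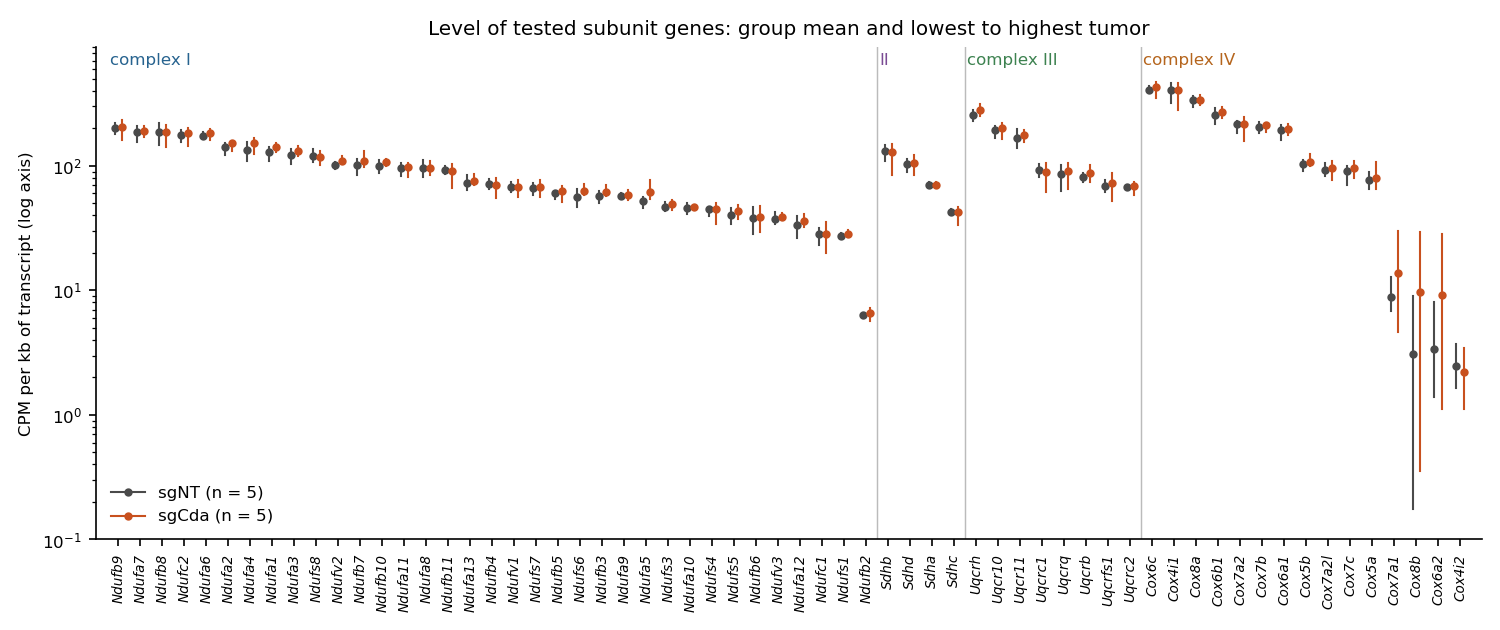
Level of 62 of the 63 tested subunit genes in CPM per kilobase of transcript on a log axis, grouped by complex and ordered by mean within it; points are group means, lines run from the lowest to the highest tumor, sgNT in grey and sgCda in orange (n = 5 each). The sgNT and sgCda ranges overlap for each of the 62 genes, and Cox8b, Cox6a2, Cox7a1 and Cox4i2 have both the lowest levels of complex IV and the widest ranges.

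Next, sgCda tumors were compared with sgNT tumors to find out whether targeting Cda in the cancer cells went with a change of these genes. No subunit gene passed the test. At an adjusted p under 0.05, edgeR's quasi-likelihood test called 0 of 63 subunit genes, as it called 0 of all 15299 genes tested (0%), and the smallest adjusted p over all genes was 0.9996. At an unadjusted p under 0.05 stood 1 subunit gene, Ndufa5, higher in sgCda, where 382 of all genes did (2.5%, with 1.54% higher and 0.954% lower in sgCda). The groups overlapped for each of the 63, and among all genes, too, they were apart for only 0.601%. DESeq2's Wald test also called 0, with 1 at an unadjusted p under 0.05.

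The data bounded the size of a difference closely for most subunits. For 59 of the 63 the 95% confidence interval lay within 1.5-fold in either direction, and the exceptions were the 4 low isoforms Cox6a2, Cox7a1, Cox8b and Cox4i2. Log2 fold changes were above 0 for 52 genes (82.5%, against 52.9% of all genes) with a median of 0.045, against 0.0078 over all genes. Many of these genes deviated in a common direction within a tumor, so their directions cannot be taken as separate observations. Without sgNT tumor 2 the count above 0 was 36 of 64 and the median 0.0075, and without sgCda tumor 4 it was 62 of 63 and the median 0.088. In the latter case Ndufa4 and Cox7a1 were at an unadjusted p under 0.05 (edgeR), as were 340 of all 15438 genes tested. The groups were then apart for Ndufa2, as for 135 of all genes. Without sgNT tumor 4 it was Ndufa5 and Cox6a2 that were at an unadjusted p under 0.05, as were 311 of 15466 genes.

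**Figure D2:**
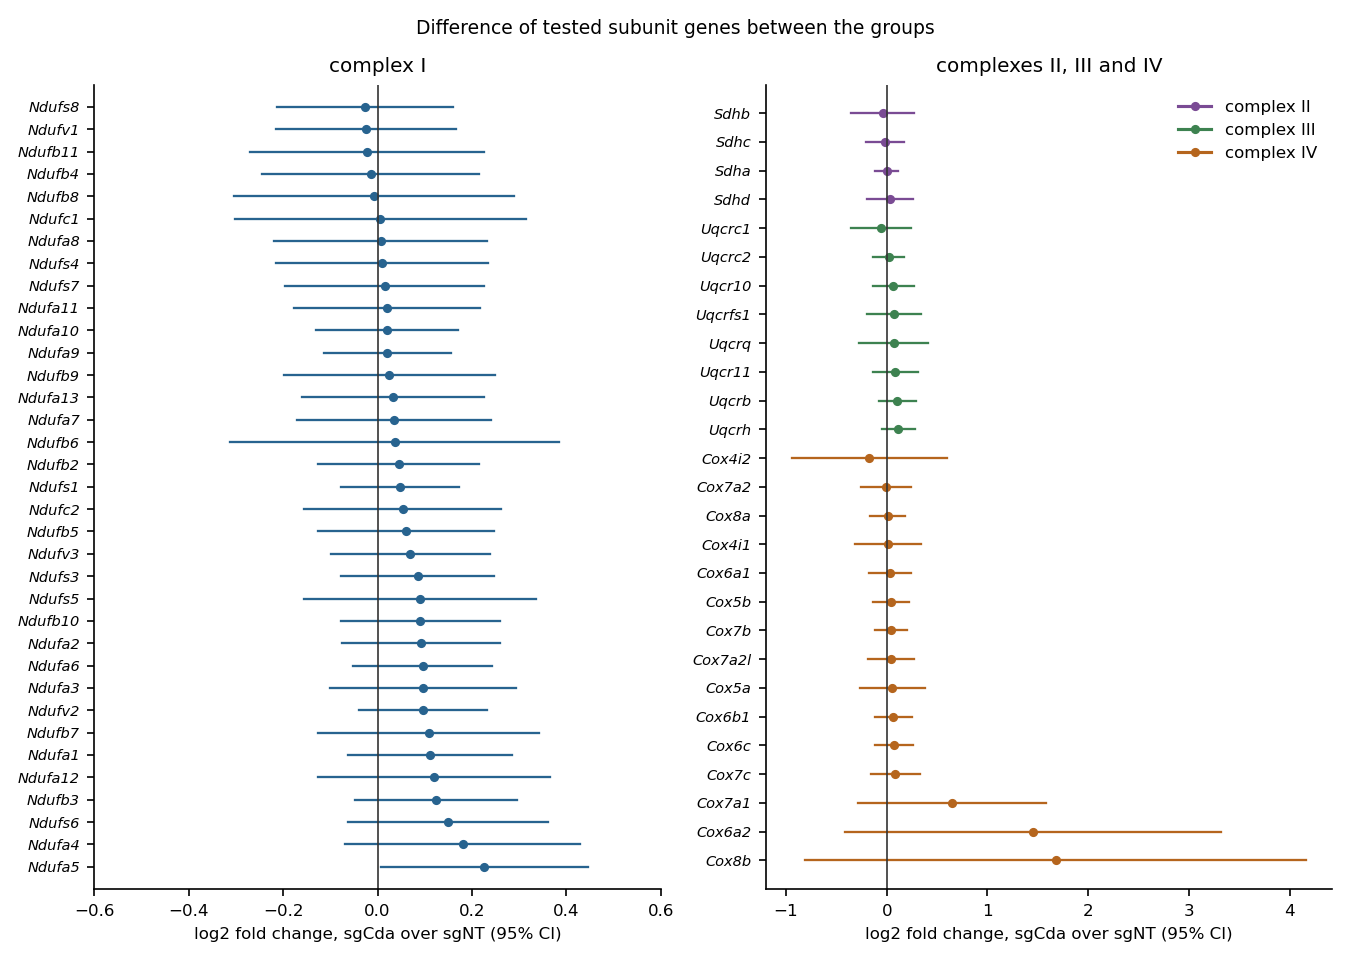
Log2 fold change of 62 of the 63 tested subunit genes, sgCda over sgNT, with its 95% confidence interval (5 tumors a group, edgeR); complex I on the left, complexes II to IV on the right on a wider axis. Intervals include 0 for each gene except Ndufa5, whose adjusted p is 0.9996, and those of Cox4i2, Cox7a1, Cox6a2 and Cox8b are the widest.

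In complex I, 30 of the 36 genes had a log2 fold change above 0, with a median of 0.046. The 7 subunits of the catalytic core carry the flavin, the iron-sulfur clusters or the ubiquinone site. Of their log2 fold changes, 4 were above 0, up to 0.096 (Ndufv2), and the median was 0.015. Ndufv2, an iron-sulfur subunit, averaged 174 ± 9.93 CPM in the 5 sgNT tumors and 186 ± 10.7 CPM in the 5 sgCda tumors (mean ± SD; adjusted p = 0.9996, edgeR). Ndufs1, the largest core subunit, was among the steadiest, from 69.9 to 80.9 CPM over all 10 tumors. Exons of Ndufs1 overlap other genes on the opposite strand, and 35.8% of the 50-base windows of Ndufs3 recur at other loci, so the counts of both may be incomplete.

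Accessory subunits of complex I stabilise the core and are needed for its assembly. Of the 29 genes with a complex I name outside the core, Ndufa4 among them, 26 had a log2 fold change above 0, with a median of 0.053. The 2 with the smallest p were Ndufa5 and Ndufa4. Ndufa5 (chr6:24518666-24528013, minus strand), a subunit of the matrix arm, was at 44.4, 39.8, 46.7, 48.9 and 49.6 CPM in sgNT tumors 1 to 5 and at 49.4, 51.2, 53.5, 66.8 and 47.8 CPM in sgCda tumors 1 to 5. Each sgCda value exceeded the sgNT mean, yet sgCda 1 and sgCda 5 lay within the sgNT range, and sgCda 4 stood highest. Its log2 fold change was 0.23 (SE 0.0995, unadjusted p = 0.0436, adjusted p = 0.9996, edgeR) and 0.14 without sgCda 4. Its unadjusted p was above 0.05 without sgNT 1, 2 or 3 or sgCda 3 or 4, each left out alone. Ndufa4 carries a complex I name but is known as a subunit of cytochrome c oxidase. It was at 90.4, 66.3, 80.2, 76.0 and 95.4 CPM in sgNT tumors and at 97.1, 102, 102, 75.5 and 86.4 CPM in sgCda tumors (log2 fold change 0.18, SE 0.11, adjusted p = 0.9996, edgeR), so the groups overlapped over most of their range.

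The 4 genes of complex II differed by less than the spread between tumors. Sdha, the flavoprotein that oxidises succinate, was the steadiest of all 63 subunit genes over the 10 tumors, at 200, 213, 209, 202 and 200 CPM in the sgNT and 201, 215, 215, 196 and 198 CPM in the sgCda tumors. Its highest tumor exceeded its lowest by 1.09-fold, and its log2 fold change was 0.0010 (SE 0.052), with an interval of −7.57% to 8.34%. Sdhb, the iron-sulfur subunit, was at 142, 124, 167, 159 and 160 CPM in the sgNT and 145, 162, 172, 97.1 and 155 CPM in the sgCda tumors. That is the widest range in the complex, 1.77-fold, and its lowest value is again sgCda 4. The membrane anchors Sdhc (136 ± 6.47 against 135 ± 16.4 CPM, sgNT first) and Sdhd (127 ± 13.8 against 130 ± 17.1 CPM) likewise had their lowest value in sgCda 4 and adjusted p values of 0.9996 (edgeR).

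For complex III, 7 of the 8 genes had a log2 fold change above 0 (median 0.070), and none passed the test. Uqcrc1, a core protein, was the exception, at 135, 139, 165, 170 and 163 CPM in the sgNT and 140, 160, 176, 102 and 163 CPM in the sgCda tumors (log2 fold change −0.059, SE 0.13, adjusted p = 0.9996, edgeR). Without sgCda 4 its log2 fold change was 0.051. The other core protein, Uqcrc2, spanned only 111 to 140 CPM. Uqcrfs1, the Rieske iron-sulfur protein, spanned 71.3 to 118 CPM, with its lowest value in sgCda 4 and its highest in sgCda 3.

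Of the 15 tested genes of complex IV, 13 had a log2 fold change above 0 (median 0.044). Without the 4 low isoforms, 10 of 11 did, with a median of 0.043. Cox4i1 was at 274, 244, 353, 338 and 336 CPM in the sgNT and 298, 357, 349, 213 and 344 CPM in the sgCda tumors (log2 fold change 0.014, SE 0.15, adjusted p = 0.9996, edgeR). Its 4 lowest values were those of sgNT 1, sgNT 2, sgCda 1 and sgCda 4, 2 tumors of each group. Cox5a (41.7 to 69.5 CPM) and Cox5b (79.0 to 107 CPM), the matrix-facing subunits, both peaked in sgCda 3. Cox6b1, which faces the intermembrane space, spanned 135 to 182 CPM, and Cox7b 185 to 227 CPM. Cox7a2l, a relative of Cox7a2 known for joining complexes III and IV into supercomplexes, averaged 99.9 ± 8.87 CPM without the Cda guide and 103 ± 14.6 CPM with it.

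The tumors themselves differed more than the groups, and they did so in a common direction for many subunits. The 66 genes took 0.574%, 0.529%, 0.604%, 0.608% and 0.640% of assigned counts in sgNT tumors 1 to 5 and 0.598%, 0.647%, 0.660%, 0.526% and 0.627% in sgCda tumors 1 to 5. The lowest tumors of the 2 groups were sgNT 2 and sgCda 4, and the groups overlapped. The highest and lowest of 10 tumors differed by 1.39-fold in the median subunit gene and by 1.58-fold in the median of all genes. The genes compared with were not matched for expression level. Deviations of each gene from its mean over the 10 tumors on the log2(CPM + 0.5) scale had a median over the 63 genes of −0.094, −0.22, 0.052, 0.048 and 0.097 in sgNT tumors and −0.023, 0.11, 0.14, −0.21 and 0.060 in sgCda tumors. Over all genes, this median stayed between −0.011 and 0.0051. The scaling of the libraries holds that median near 0, so it does not show how far other sets of genes deviated.

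**Figure D3:**
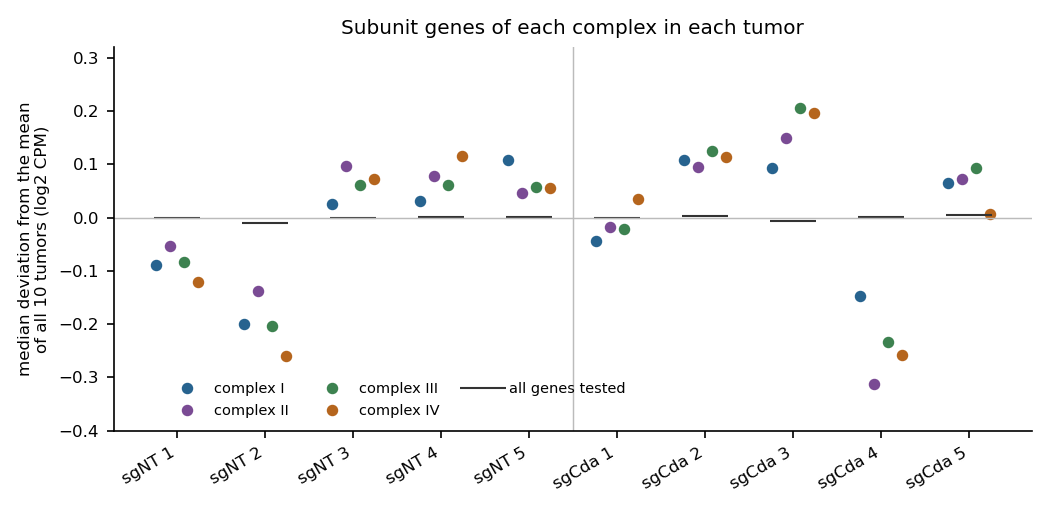
Median deviation of the tested genes of each complex from their mean over the 10 tumors, in log2 CPM, for each tumor; black dashes give the median over all genes tested. All 4 complexes lie below 0 in sgNT 1, sgNT 2 and sgCda 4 and above 0 in sgNT 3 to 5, sgCda 2, sgCda 3 and sgCda 5. Library scaling holds the dashes near 0.

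Tumor sgCda 4 was the lowest of the 10 for 29 of the 63 subunit genes (46.0%, against 22.7% of all genes), among them all 4 of complex II. Over all 63 the median log2 difference of this tumor from the mean of the other 9 was −0.23, and 14 genes lay above that mean. It was the highest of the 10 for 5 (7.94%, against 26.5% of all genes), all of complex I (Ndufa5, Ndufa12, Ndufb3, Ndufs1 and Ndufs3). Complex I holds 36 of the 63 genes, and 15 of the 29 that were lowest in sgCda 4. Within the core, Ndufs8 was at 100 CPM there against 106 to 133 CPM in the other 9 tumors, whereas Ndufs3 was at 55.7 CPM against 45.2 to 54.0 CPM. So even within 1 complex the genes did not move together in this tumor. The same library had the fewest assigned counts and the most genes detected (21967). Of its assigned, ambiguous and no-feature reads, HTSeq put the largest share on no annotated feature (18.4%, against 10.3% to 14.9% in the others). The part of these library properties in the subunit values was not tested.

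Tumor sgCda 3 was the highest of the 10 for 29 of the 63 genes (46.0%, against 18.8% of all genes), and sgNT 2 was the lowest for 27 (42.9%, against 11.1%). Without sgCda 3, 38 of 63 subunit genes had a log2 fold change above 0 (median 0.025). Without both sgCda 3 and sgCda 4, an alternative chosen after seeing the data, 55 of 63 did (median 0.072). Then 0 passed at an adjusted p under 0.05 (edgeR), and Cox6c, Cox7a2l, Ndufa6 and Ndufb2 were at an unadjusted p under 0.05, as were 519 of 15515 genes.

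Mitochondrially encoded subunits, counted in the same libraries, showed sgCda 4 on the opposite side. They include mt-Atp6 and mt-Atp8 of ATP synthase, whose nuclear genes are not in the nuclear-encoded set. The 13 of them took 3.43%, 3.21%, 3.27%, 3.32% and 3.22% of assigned counts in sgNT tumors and 3.45%, 3.49%, 3.21%, 5.44% and 3.30% in sgCda tumors. The 9 other tumors thus lay within 3.21% to 3.49%. Each of the 12 that passed the filter was highest in sgCda 4, at 1.14-fold to 2.13-fold the mean of the other 9. Per count of the nuclear-encoded subunits there were 5.97, 6.07, 5.42, 5.47 and 5.03 mitochondrially encoded counts in sgNT tumors and 5.76, 5.40, 4.86, 10.3 and 5.26 in sgCda tumors. The libraries were made from polyadenylated RNA, so these ratios compare tumors and are no copy numbers. Of the 12, 11 had a log2 fold change above 0 with a median of 0.19, and 0 were called (edgeR) or at an unadjusted p under 0.05. As all 12 were highest in sgCda 4, these directions and this median lean on that tumor. No fold change without sgCda 4 is given here for these genes, so they do not show a shift of the whole group.

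**Figure D4:**
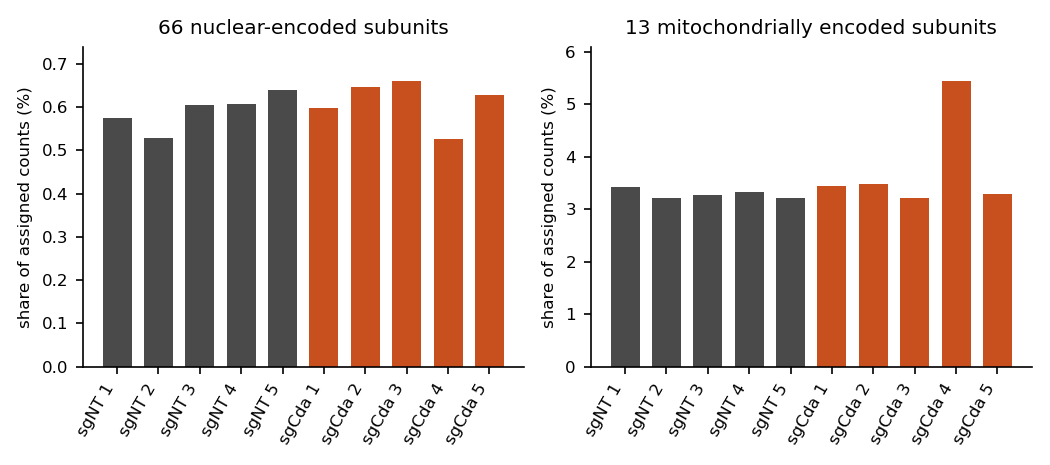
Share of assigned counts, in percent, taken by the 66 nuclear-encoded subunit genes (left) and the 13 mitochondrially encoded ones (right) in each tumor; sgNT in grey, sgCda in orange. In sgCda 4 the nuclear share is the lowest of the 10, 0.526%, and the mitochondrial share the highest, 5.44%. The 13 include mt-Atp6 and mt-Atp8 of ATP synthase, of which the 66 hold no gene.

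The muscle isoforms of complex IV gave the largest differences between tumors. Cox6a2 (chr7:128205435-128206387, minus strand) was at 0.944, 1.01, 2.82, 5.53 and 1.18 CPM in sgNT tumors 1 to 5 and at 7.35, 2.75, 19.4, 1.13 and 0.759 CPM in sgCda tumors 1 to 5. Cox8b (chr7:140898945-140900446, minus strand) was at 0.270, 0.0632, 1.86, 3.24 and 0.101 CPM in the sgNT and 4.06, 2.34, 10.5, 0.567 and 0.127 CPM in the sgCda tumors. Cox7a1 (chr7:30184144-30186078, plus strand) was at 2.83, 3.19, 3.53, 5.06 and 2.69 CPM in the sgNT and 6.18, 3.54, 11.8, 1.81 and 3.73 CPM in the sgCda tumors. All 3 were highest in sgCda 3, and in each group the same tumors (sgNT 3 and 4, sgCda 1 to 3) were high for Cox6a2 and Cox8b, so the groups overlapped. Their highest and lowest tumors differed by 25.6-fold, 167-fold and 6.53-fold. The lowest Cox8b value, in sgNT 2, is below the 0.0954 CPM that 3 counts give in that library.

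Log2 fold changes were 1.45 for Cox6a2 (SE 0.85), 1.68 for Cox8b (SE 1.13) and 0.65 for Cox7a1 (SE 0.42), each with an adjusted p of 0.9996 (edgeR). The intervals were wide, for Cox6a2 from −24.9% to 901%. Without sgCda 3 the values were 0.39, 0.69 and 0.14, and without sgNT 4 they were 2.07, 2.62 and 0.82. The partner isoforms Cox6a1, Cox8a and Cox7a2 spanned only 91.7 to 124, 164 to 203 and 104 to 162 CPM, the last with its lowest value in sgCda 4. Cox6a2 thereby made up 0.662% to 13.7% of the CPM of its pair, Cox8b 0.0385% to 4.93% and Cox7a1 1.71% to 6.78%.

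Markers of skeletal muscle, which lies next to a flank tumor, moved with Cox6a2 and Cox8b. The summed level of 12 such genes (among them Acta1, Ckm, Mylpf and Myh4) was 14.8, 6.29, 421.5, 627.7 and 20.1 CPM in sgNT tumors and 638.4, 366, 2529.9, 40.6 and 5.95 CPM in sgCda tumors. The 5 tumors with the most marker counts were the 5 with the most Cox6a2 and the most Cox8b, and 11 of the 12 markers peaked in sgCda 3. Cox7a1 departed from this in sgCda 5, which had the fewest marker counts but more Cox7a1 than sgNT 3. Of 11 markers tested, 11 had a log2 fold change above 0 (median 1.68) and 0 were called (edgeR). Of 5 markers of cardiac or slow muscle, Myh6 had 1 count in all 10 tumors, Tnnc1 3, Myh7 26 and Myl2 85, while Tnnt2 was at 1.89 to 6.16 CPM, and Myl2 and Tnnt2 were highest in sgCda 3. Ucp1, the defining gene of brown fat, which also uses Cox7a1 and Cox8b, had 8 counts. The part of muscle in the values of the 3 isoforms was not tested.

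**Figure D5:**
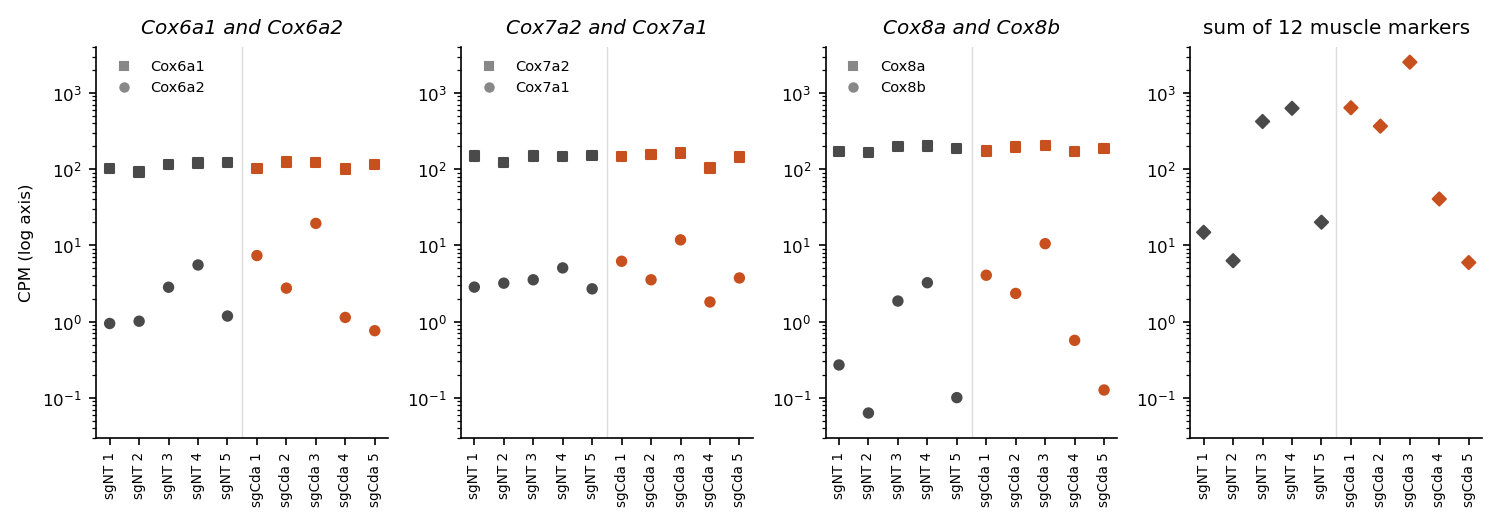
CPM on a log axis in each tumor for 3 isoform pairs of complex IV (squares, widely expressed isoform; circles, muscle isoform) and, in the last panel, the summed CPM of 12 skeletal muscle markers; sgNT in grey, sgCda in orange. Cox6a2 and Cox8b are high in sgNT 3 and 4 and in sgCda 1 to 3, the tumors with 366 to 2529.9 CPM of muscle markers, while Cox6a1, Cox7a2 and Cox8a stay between 91.7 and 203 CPM.

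Cox4i2 was at 1.21, 1.30, 2.70, 2.20 and 1.71 CPM in the sgNT and 0.992, 1.47, 2.55, 0.815 and 2.25 CPM in the sgCda tumors (log2 fold change −0.17, SE 0.35, adjusted p = 0.9996, edgeR). Its highest values were those of sgNT 3, sgCda 3, sgCda 5 and sgNT 4, among which sgCda 5 had the fewest muscle marker counts of all 10 tumors and the other 3 had many.

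Other genes of the pathway, from lists written with the rule, were counted in the same test, and 0 of them were called (edgeR). Of 16 ATP synthase genes, among them its inhibitor Atpif1, 10 had a log2 fold change above 0 (median 0.040), and their summed level, 2789 CPM in sgCda 4 against 3128 to 3913 CPM in the other tumors, was lowest in the same tumor as for the subunits of the chain. Atpif1, with the largest log2 fold change of the list (0.13), went the other way in sgCda 4, at 86.3 CPM against 54.1 to 71.1 CPM. For the counts of each list, the shares over all genes were 52.9% above 0 and 2.5% at an unadjusted p under 0.05. Of 39 assembly factors tested, 22 were above 0 (median 0.018). At an unadjusted p under 0.05 stood 1 of them, Sdhaf1 (adjusted p = 0.9996, edgeR), which helps to mature the iron-sulfur subunit of complex II. It was at 5.43 to 6.43 CPM in sgNT and 6.80 to 7.50 CPM in sgCda tumors. These ranges did not overlap, as was so for 0.601% of all genes, and the gene was named after its values were seen. The 12 biogenesis regulators, among them Ppargc1a, Nrf1 and Tfam, were split evenly, with 6 above and 6 below 0 (median −0.012), and 0 were at an unadjusted p under 0.05. Of 14 enzymes of the tricarboxylic acid cycle, 8 were above 0 (median 0.0090), with Dld at an unadjusted p under 0.05 (log2 fold change 0.12, SE 0.049, adjusted p = 0.9996, edgeR). Of the genes left outside the naming rule, Cyc1, the cytochrome of complex III, averaged 148 ± 14.2 CPM in the sgNT group and 140 ± 27.9 CPM in the sgCda group, and its lowest value, 95.2 CPM, was again that of sgCda 4.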

How the data were processed

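Total RNA was extracted by the authors from whole tumors with TRIzol, and stranded libraries of polyadenylated RNA were read over their first 50 bases. Per the labels and the study's methods, reads were aligned to mm10 with TopHat and Bowtie2 and assigned to Ensembl genes with HTSeq (07.2). The strand setting and annotation release are not given in the sources used here. The deposited values are whole-number counts per gene and tumor, not normalized. Reads aligning to several places or several genes were not counted. Of assigned, ambiguous and no-feature reads together, 2.3% to 2.51% fell on more than 1 gene and 10.3% to 18.4% on no annotated feature. Alignments to several places are outside this base. They numbered 0.684 (sgNT 5) to 0.789 (sgCda 4) per assigned count. The 5 HTSeq summary lines were dropped. Of 37417 identifiers, 32608 had a symbol.

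Genes were filtered with filterByExpr (minimum count 10, minimum total 15), leaving 15299, and libraries scaled with TMM. Groups, taken from sample titles, were compared with edgeR's quasi-likelihood test (edgeR 4.0.16, R 4.3.3), with all 10 tumors, no covariate and Benjamini-Hochberg adjustment over all 15299 genes. P values set the difference between the groups against the spread between tumors within a group, for these 10 tumors. CPM were computed from TMM-scaled library sizes. Levels per kb used the principal transcript of GENCODE vM21 (GRCm38), chosen by APPRIS tag, support level and then coding length. Ndufb2 has principal transcripts of very unequal length, so its level per kb is uncertain. Uniqueness was taken as the share of a transcript's 50-base windows absent from genes at other loci. Windows that recur there made up 53.0% for Cox7c, 43.2% for Uqcrb, 25.9% for Cox5b, 19.8% for Cox7a2l and 12.3% for Cox6a1. The counts of these genes, and of others with such windows, may therefore be incomplete. Depth bounds a count of 0 at 3 counts, counting error only.

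Genes named with values were those of smallest p in each direction (3 each, as none passed), the core of complex I, complex II, Uqcrc1, Uqcrc2 and Uqcrfs1, the isoform pairs of complex IV, the 3 highest and 3 lowest levels, the 3 most variable and those failing the filter. 1 subunit gene that the rule named enters the counts and medians but is not reported here. Others named in passing were chosen after their values were seen. The members and lists were chosen with earlier results of these data known.

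Alternatives were DESeq2's size factors, library totals, no filter beyond 1 count, DESeq2's Wald test (DESeq2 1.42.0), the replicate number as a block, and each tumor left out in turn. Leaving out sgCda 3 and sgCda 4 together was chosen after seeing the data.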

Additional observations from a re-analysis of the deposited data

Results flagged for a closer look

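Of 82 sets of 5 values (named genes and summed measures in each group), 6 held a tumor whose gap to its nearest neighbour exceeded 0.71 of the range (Dixon's 95% value for 5 samples), where chance gives about 1 in 20, or 4.1. The share of mitochondrially encoded counts was 5.44% in sgCda 4, with the rest of its group at 3.21% to 3.49%, and their number per nuclear-encoded subunit count was 10.3 there against 4.86 to 5.76. Cox7b was at 187.3 CPM in sgCda 4 against 216.0 to 222.0 CPM. Cox5b was at 107.2 CPM in sgCda 3 against 86.8 to 90.3 CPM. Cox7a2 was at 121.1 CPM in sgNT 2 against 145.8 to 151.8 CPM. Cox7b2 was at 0.0251 CPM in sgNT 5, which is a single count, against 0 in the other 4 sgNT tumors.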

How the results depend on the processing

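No alternative called a subunit gene, and none called any gene at an adjusted p under 0.05. Over all genes, the number at an unadjusted p under 0.05 ran from 280 to 830 across the alternatives, against 382. Leaving out each tumor in turn, 0 to 2 subunit genes were at an unadjusted p under 0.05, 0 to 1 had groups apart, and their median log2 fold change was 0.0075 to 0.088. Of all 15377 to 15499 genes tested in these fits, 280 to 747 were at an unadjusted p under 0.05 and 134 to 300 had groups apart. Without sgCda replicates 3 and 4 together, 4 were at an unadjusted p under 0.05 and 3 had groups apart (Cox6c, Ndufa2 and Ndufb2), beside 535 of all genes.

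Directions of single genes near 0 turned. Without the filter, the log2 fold changes of Cox4i1 (−0.00073), Cox8a (−0.0097), Ndufs7 (−0.0020) and Sdha (−0.017) were below 0. Sdha was also below 0 with DESeq2's size factors (−0.0015) and Wald test (−0.0013), and Cox7a2 was above 0 with library totals (0.0011). Without sgCda replicates 3 and 4 together, values were Cox5a −0.021, Cox5b −0.019, Cox8a −0.00043, Ndufs1 −0.0098, Sdha −0.0044, Cox7a2 0.051, Ndufs8 0.052, Ndufv1 0.047, Sdhb 0.033 and Sdhc 0.066. Their causes were not tested.

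Leaving out single tumors, the log2 fold change ran from −0.061 to 0.13 for Cox4i1, −0.40 to 0.012 for Cox4i2, −0.074 to 0.13 for Cox5a, −0.015 to 0.068 for Cox5b, −0.027 to 0.072 for Cox6a1, −0.064 to 0.088 for Cox7a2, −0.0024 to 0.11 for Cox7a2l, −0.033 to 0.038 for Cox8a, −0.036 to 0.073 for Ndufs7, −0.066 to 0.022 for Ndufs8, −0.078 to 0.036 for Ndufv1, −0.017 to 0.017 for Sdha, −0.11 to 0.077 for Sdhb, −0.049 to 0.060 for Sdhc, −0.026 to 0.11 for Sdhd, −0.13 to 0.051 for Uqcrc1, −0.0089 to 0.071 for Uqcrc2 and −0.0037 to 0.17 for Uqcrfs1. Without a change of direction it ran from 0.39 to 2.07 for Cox6a2, 0.69 to 2.62 for Cox8b and 0.14 to 0.87 for Cox7a1.

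The replicate numbers recur in both groups, but tumors of the same number deviated together in only some pairs (correlations −0.028, −0.024, 0.33, −0.43 and 0.34 for numbers 1 to 5), so they were not treated as pairs. With the replicate number as a block, 0 subunit genes were called, 1 was at an unadjusted p under 0.05 and the median was 0.044, with 325 of all genes at an unadjusted p under 0.05. Under the block the log2 fold changes of Cox6a2, Cox8b and Cox7a1 were 1.00, 2.03 and 0.44.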
